A study of Mus musculus with 18 samples.

Results

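Late GATA6-only regions in naive chromatin are stretches of the mouse genome that GATA6 occupied late during induced endoderm differentiation, without called binding of SOX17 or of OCT4, SOX2 or ESRRB, which the study groups as pluripotency transcription factors (PTFs). They were selected from the deposited table of GATA6 binding regions by 4 labels of the authors, namely the Late GATA6 cluster, no PTF, no SOX17 and the histone state called naive. This rule gave 1171 of 42403 regions (2.76%), or 8.22% of the 14243 Late regions and 15.3% of the 7631 naive regions. All 4 labels come from measured binding, histone or DNase accessibility data, so the values behind them are no finding here. The rule has no numeric threshold.

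The study followed KH2 mouse embryonic stem (ES) cells, of C57BL/6 x 129/Sv background, in which doxycycline (Dox, 1 µg/mL) switches on a Gata6 cassette and drives the cells towards primitive endoderm (PrE). The series holds 18 MNase-seq libraries with 3 replicates for each of 6 groups, which are cells without Dox at d0 and those exposed to Dox for 8, 16, 24, 48 or 96 h. All groups carry the cassette and were grown with LIF on mitomycin-treated feeder fibroblasts, and the inducible lines were derived as single clones. The columns used hold no value of an MNase library and no signal of a time point. Neither nucleosomes nor the course of GATA6 binding was analysed here, and the labels were not set against signal. Regions, not libraries, are the units below. The study gives read depth only as an average over its ChIP-seq libraries, and the columns used hold no read count of a library or region.

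GATA6 is a zinc finger factor that recognises GATA sequences, and it starts the gene programme of the PrE, the tissue that lines the early yolk sac. GATA factors are known as pioneers, which can bind motifs wrapped in nucleosomes. Naive is the authors' name for chromatin of ES cells with little of the active or repressive histone marks examined, as opposed to enhancers, promoters or the facultative heterochromatin that Polycomb marks with H3K27me3. SOX17 is an HMG box factor of the endoderm that GATA6 activates, and OCT4 and SOX2 hold the pluripotent state and bind a joint motif.

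The DNA at named regions is shown first, since motif content is the main readout. They were picked by rule for a high score, a nearby list gene or a knockdown class with a high score. They are not typical of the set, whose best scores had a median of 10.1 and an upper quartile of 11.9. Each line gives the strand that carries the best GATA6 motif, 5′ to 3′, from the GRCm38 (mm10) reference, with that motif in capitals. Lines are named after the nearest gene, except that of Sox7, which is the list gene closest to a region whose nearest start is that of Pinx1. The regions near Cd28 and in Sorcs3 had the highest motif scores, and those of Lama1, Dab2, Thbd and Sox7 lay nearest to genes of the endoderm lists. Those whose nearest starts were Wnt2 (84610 bp away) and Fermt1 (200031 bp away) had lowered and raised GATA6 binding after Oct4 knockdown.
Cd28, chr1:60814227-60814267, plus strand: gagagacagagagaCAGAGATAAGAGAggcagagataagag
Sorcs3, chr19:48535116-48535156, plus strand: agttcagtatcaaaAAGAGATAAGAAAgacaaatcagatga
Lama1, chr17:67758634-67758674, plus strand: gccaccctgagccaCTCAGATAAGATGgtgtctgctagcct
Dab2, chr15:6395982-6396022, minus strand: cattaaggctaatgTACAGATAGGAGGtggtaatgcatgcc
Thbd, chr2:148403158-148403198, minus strand: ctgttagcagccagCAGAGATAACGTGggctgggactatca
Sox7, chr14:63844424-63844464, plus strand: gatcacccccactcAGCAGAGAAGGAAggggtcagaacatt
Wnt2, chr6:17945991-17946031, minus strand: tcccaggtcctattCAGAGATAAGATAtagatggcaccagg
Fermt1, chr2:133145967-133146007, minus strand: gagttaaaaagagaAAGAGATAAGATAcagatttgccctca

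The best motifs of the Cd28, Sorcs3, Lama1, Wnt2 and Fermt1 regions all hold GATAAG, those of Thbd and Dab2 hold GATAAC and GATAGG, and that of Sox7 lacks GATA altogether. Their scores, log-odds values of the match to the GATA6 matrix, followed that order in part, with 15.0 near Cd28 and in Sorcs3, 14.6 near Wnt2 and Fermt1, 13.9 in Lama1, 9.77 at Thbd, 9.29 in Dab2 and 8.06 near Sox7. The region with the most GATA6 motifs lay in an intron of Armc3, with Msrb2 as the nearest protein-coding start, and had 17 motifs. The window around its summit is shown whole on the plus strand, with the bases of its 8 GATA6 motifs in capitals.
Armc3 intron, chr2:19304954-19305154, plus strand: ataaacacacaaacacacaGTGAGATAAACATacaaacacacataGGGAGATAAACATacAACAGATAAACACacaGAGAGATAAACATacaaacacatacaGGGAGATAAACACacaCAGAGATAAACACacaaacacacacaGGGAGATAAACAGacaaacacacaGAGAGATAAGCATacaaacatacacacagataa

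The motifs of that window recur in a short tandem array. At the other regions only the best motif is marked, and some hold more, with 4 GATA6 motifs in the summit window near Cd28 and 3 in that of Lama1.

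A GATA6 motif was the common feature of these regions. A match stood at most 100 bp from the summit in 987 of the 1171 regions (84.3%, 95% Wilson interval 82.1 to 86.3). Windows of the same length 3 kb to each side, which overlapped no GATA6 region, held one in 37.1%. The difference was 47.2 percentage points (Newcombe interval 44.2 to 49.95). The motif was also common at GATA6 regions in general, with 77.1% of all summit windows and 43.6 points above flanks. All Late regions had 74.0% and 40.4 points. Over the whole region 1097 regions (93.7%) had a GATA6 motif. The other 74 had none, and 15 of the 1171 (1.28%) had no motif of GATA6, SOX17, OCT4:SOX2 or ESRRB at all. Intervals here and below cover counting error among regions only. Neighbouring regions are not independent, so it is also stated on how many of 20 chromosomes the difference had its pooled sign.

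For comparison 3 classes were used, each of which differs from the set in 1 label of the rule. Other classes that differ in 1 label were not compared, and similarity was not measured. Late naive regions that also bound SOX17 (1541 regions) had a GATA6 motif in 79.5% of windows. The GATA6-only regions were 4.79 percentage points higher (1.86 to 7.67, 13 of 20 chromosomes). The difference was 2.65 points (-1.23 to 6.40) among regions between the width quartiles of the table, 369 and 778 bp. Transient GATA6-only regions in naive chromatin (1052 regions), which GATA6 leaves again, had a motif in 92.4%, so the Late regions were 8.11 points lower (-10.7 to -5.47, 18 of 20 chromosomes). Late GATA6-only regions in facultative heterochromatin (2493 regions) had one in 83.0%, with a difference of 1.30 points whose interval held 0 (-1.32 to 3.79).

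**Figure D1:**
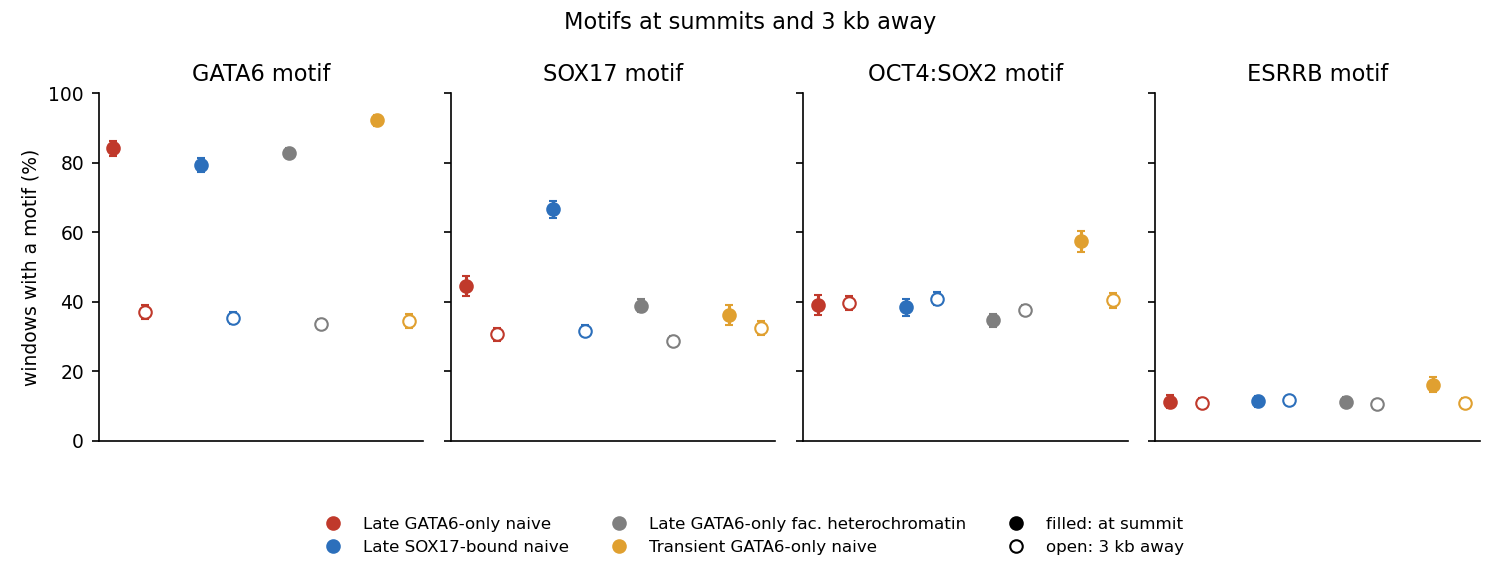
Share of windows reaching 100 bp to each side that hold a motif (y axis, percent), at the GATA6 summit (filled) and 3 kb away (open), for 4 motifs and 4 classes of region, with 95% Wilson intervals as bars. Late GATA6-only naive regions (red) stood at 84.3% against 37.1% for GATA6 and at 44.5% against 30.6% for SOX17, while their OCT4:SOX2 and ESRRB shares lay close to the flanks.

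Many of the regions carried several GATA6 motifs. Of the 1171, 237 had 1 motif, 299 had 2, 257 had 3, 157 had 4 and 147 had at least 5. The mean density was 6.02 motifs per kb (SD 3.85). It was 1.43 per kb higher than in SOX17-bound naive regions (1.17 to 1.69, 19 of 20 chromosomes), whose mean was 4.59. Counted per region, with no account of width, the direction turned, with 2.65 motifs per region against 2.81 (difference -0.15, -0.29 to -0.01). Against Transient naive regions the densities of 6.02 and 6.05 did not differ beyond the interval (-0.35 to 0.28). Within 100 bp of the summit, 598 windows (51.1%) held 2 or more GATA6 motifs. The shares were 41.4% with SOX17, 44.4% in facultative heterochromatin and 58.8% in Transient naive regions. Among the 367 windows with exactly 2, both motifs lay on the same strand in 206, and their starts were a median of 45 bp apart. In the same order, the other classes had 251 of 447, 431 of 756 and 223 of 355 on the same strand. Their medians were 51, 45 and 47 bp.

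The best GATA6 motif of a region scored 10.4 on average (SD 2.19, n = 1097), with quartiles of 8.68 and 11.9 and a range of 6.24 to 15.0. This was 1.40 below the mean of Transient naive regions (11.8, difference interval -1.59 to -1.21), and the direction held on all 20 chromosomes. The mean of SOX17-bound naive regions was 10.2, with a difference of 0.16 whose interval held 0 (-0.01 to 0.33). In facultative heterochromatin the mean was 10.1 (difference 0.22, 0.06 to 0.38, 13 of 20 chromosomes). Among regions between the width quartiles that last difference was 0.02 (-0.22 to 0.25).

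Best motifs of the GATA6-only regions were diverse in sequence, as were those of the other Late classes compared. The 1080 that had the full length of the matrix comprised 1007 different sequences, and the most frequent occurred 4 times. Each letter of the core GATAA stood at its place in 92.7% to 99.4% of them. The letter before the core was A in 79.7% and T in 18.9%, and the letter after it was G in 70.7%, C in 15.4% and A in 11.4%. Different sequences numbered 1315 of 1425 best motifs with SOX17 and 2000 of 2198 in facultative heterochromatin. Transient naive regions had 829 of 1005, and their most frequent sequence occurred 28 times.

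Without regard to width, the distance of the best motif from the summit set the regions between SOX17-bound and other classes. Its centre was at most 50 bp away in 575 of 1097 regions (52.4%, 49.5 to 55.4), and the median distance was 48 bp. SOX17-bound naive regions had 41.8%, which is 10.6 percentage points less than the GATA6-only regions (6.67 to 14.5, 17 of 20 chromosomes). The shares were higher in facultative heterochromatin (58.8%, difference -6.38, -9.97 to -2.80) and in Transient naive regions (58.1%, difference -5.65, -9.86 to -1.40). Width moved with these values. Among regions between the width quartiles the differences from SOX17-bound and heterochromatin regions were 3.02 (-2.05 to 8.08) and -2.09 (-7.25 to 3.09). The mean width was 466 bp (SD 202) in the GATA6-only regions, 631 bp (SD 283) with SOX17, 360 bp (SD 131) in heterochromatin and 543 bp (SD 221) in Transient regions. Widths come from the same GATA6 peaks as the clusters and are given as a description.

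**Figure D2:**
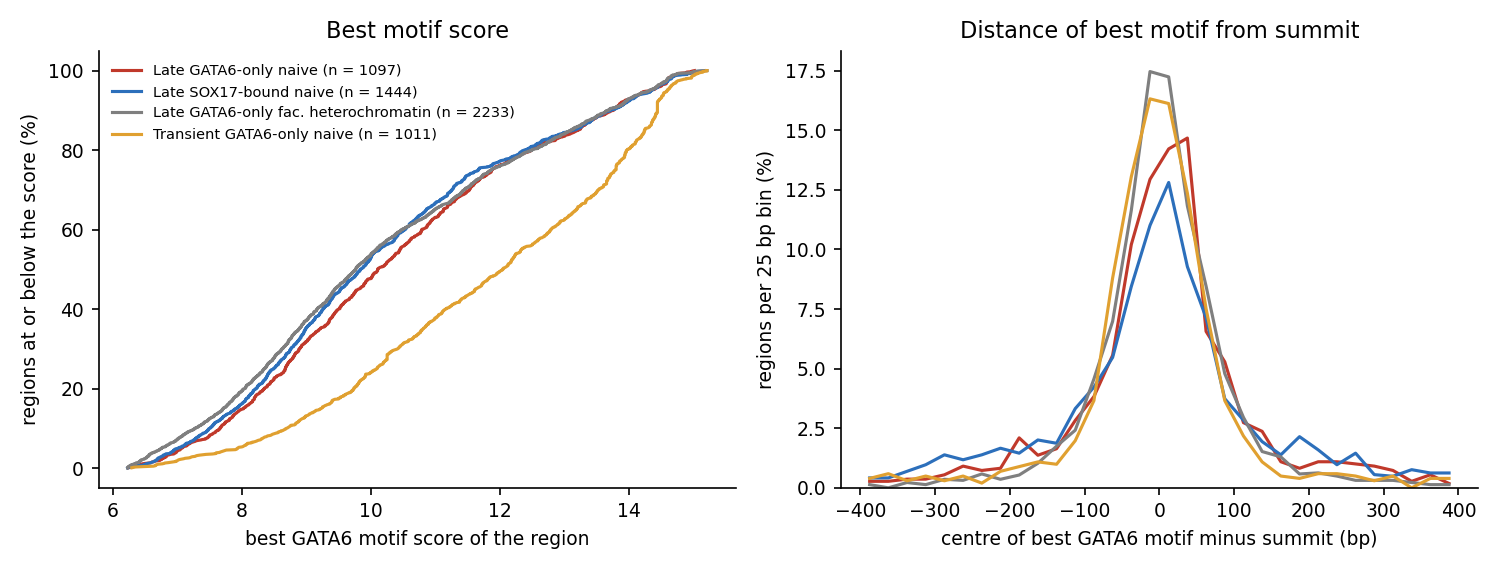
Left, cumulative share of regions (y axis, percent) at or below each best GATA6 motif score (x axis, log-odds score). Right, share of regions per 25 bp bin (y axis, percent) by the distance in bp from the summit to the centre of the best GATA6 motif (x axis). The Transient curve lies to the right of the 3 Late curves, with a mean score of 11.8 against 10.4 in Late GATA6-only naive regions, and best motifs of all classes gathered at the summit.

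A SOX17 motif was present at many of these regions although none had called SOX17 binding. The summit windows of 521 regions held one (44.5%, 41.7 to 47.4), beside 30.6% of windows 3 kb away, a difference of 13.9 percentage points (10.4 to 17.3). This was close to all 42403 regions, with 43.1% of summit windows and a difference from flanks of 14.3 points. All Late regions had 50.15% and 21.5 points. SOX17-bound naive regions had a SOX17 motif in 66.6% of windows and a difference from their flanks of 34.9 points. The GATA6-only regions differed from them by -22.15 points (-25.8 to -18.4), on all 20 chromosomes. They were 8.28 points above Transient naive regions, with 36.2% (4.19 to 12.3, 17 of 20 chromosomes), and 5.58 points above facultative heterochromatin, with 38.9% (2.16 to 9.01, 15 of 20 chromosomes). Both of these differences had intervals that held 0 among regions between the width quartiles (4.71, -0.48 to 9.86, and 1.25, -3.67 to 6.18).

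Where a SOX17 motif was present, it matched less well than in bound regions. The best SOX17 motif scored 9.67 on average (SD 1.54, n = 800 regions with a motif) against 10.2 (SD 1.54, n = 1346) in SOX17-bound naive regions, a difference of -0.52 (-0.65 to -0.38, 19 of 20 chromosomes). Between the width quartiles this difference was -0.52 (-0.69 to -0.35). For the mean score of all SOX17 motifs of a region it was smaller, -0.21 (-0.32 to -0.10). GATA6 and SOX17 motifs occurred together at the summit in 432 regions (36.9%), GATA6 alone in 555 (47.4%), SOX17 alone in 89 (7.60%) and neither in 95 (8.11%). In SOX17-bound naive regions both occurred in 52.2% and GATA6 alone in 27.3%. Within the GATA6-only regions the best GATA6 score was 10.3 with a SOX17 motif at the summit and 10.5 without one, a difference of -0.19 whose interval held 0 (-0.45 to 0.07).

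Motifs of the pluripotency factors were not more frequent at these summits than nearby. The OCT4:SOX2 motif, the joint site of both proteins, was found in 39.1% of summit windows and 39.8% of flanking windows (difference -0.66, -4.08 to 2.80). The ESRRB motif, bound by an orphan nuclear receptor of the pluripotency network, was found in 11.2% and 10.9% (difference 0.32, -1.84 to 2.60). Transient naive regions, likewise without called PTF binding, had an OCT4:SOX2 motif in 57.5% and an ESRRB motif in 16.1% of summit windows. The Late regions were 18.4 points (-22.4 to -14.3, 19 of 20 chromosomes) and 4.88 points (-7.76 to -2.03, 16 of 20 chromosomes) lower. The ESRRB difference was -1.36 points (-5.05 to 2.34) between the width quartiles. Against SOX17-bound naive regions the OCT4:SOX2 shares differed by 0.63 points (-3.06 to 4.34) and the ESRRB shares by -0.17 (-2.55 to 2.27). Over whole regions, which are wider with SOX17, these differences were -7.13 (-10.5 to -3.77) and -7.30 (-10.6 to -3.92). The OCT4:SOX2 share was 4.46 points above that of facultative heterochromatin (1.11 to 7.83, 14 of 20 chromosomes), and 1.08 points above it (-1.65 to 3.91) in windows reaching 50 bp to each side.

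Short letter patterns, searched on both strands, extended this view without the matrices. AGATAA was present in 725 summit windows (61.9%) and 14.1% of flanking windows, and TGATAA in 504 (43.0%) and 13.4%. Over all 42403 regions the summit shares were 54.3% and 30.8%. AACAAT, a core of SOX motifs, was present in 26.8% of summit windows and 15.0% of flanks, beside 41.1% of summits with SOX17 and 21.6% of all summits. TGTTTAC, recognised by forkhead (FOX) factors, stood in 9.65% against 4.33% of flanks (difference 5.32 points, 3.51 to 7.30), and in 6.16% of all summits. The other Late classes had it in 11.4% of summits with SOX17 (difference from flanks 8.00, 6.34 to 9.78) and 10.1% in facultative heterochromatin (7.29, 6.06 to 8.60). Transient naive regions had TGTTTAC in 3.99% of summits, close to their flanks (difference 1.07, -0.25 to 2.57). The AP-1 pattern TGACTCA or TGAGTCA was found in 8.28% against 3.54% (difference 4.75, 3.07 to 6.60), with 7.82% of all summits. GGAATG, the letters of TEAD sites, was found in 16.5% against 11.5% (difference 4.95, 2.50 to 7.51), with 18.8% of all summits. The E-box CACGTG (2.22% against 1.72%, 2.64% of all summits) and the GC box GGGCGG (1.62% against 1.37%, 6.45% of all summits) differed from the flanks by less than their intervals. AGATAA and TGATAA can overlap the GATA6 motif, and AACAAT the SOX17 motif. A match of letters is not a bound site.

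**Figure D3:**
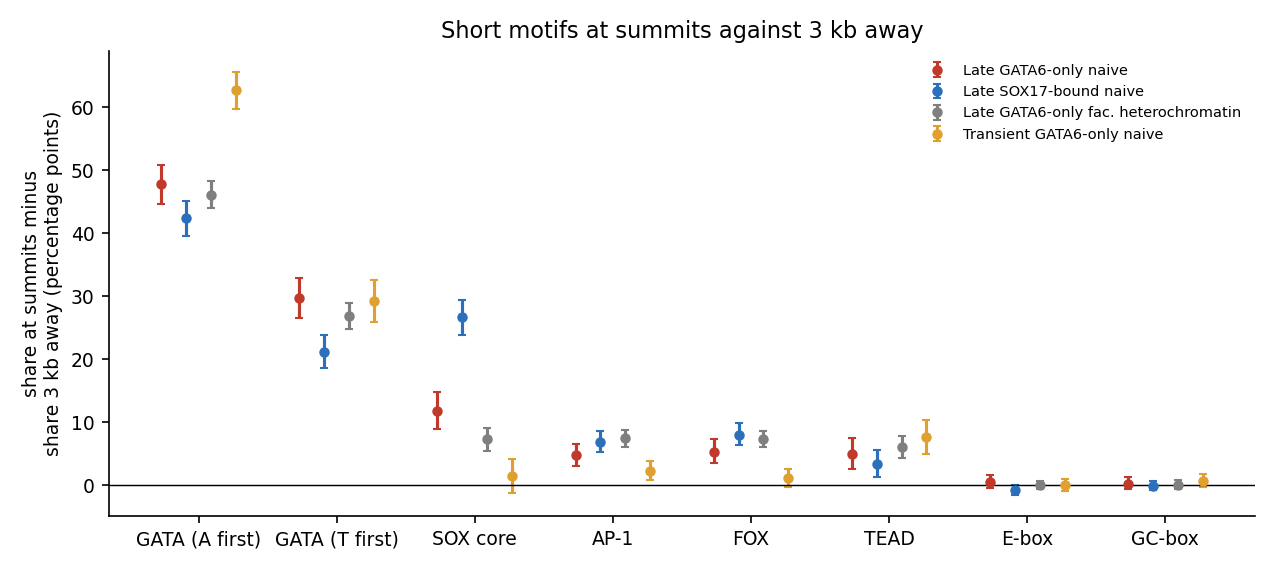
Share of summit windows with a letter pattern minus the share of windows 3 kb away (y axis, percentage points, bars are 95% Newcombe intervals), for 8 patterns and 4 classes of region. The GATA patterns are AGATAA (A first) and the same with T first, and the SOX core is AACAAT. In Late GATA6-only naive regions the difference was 47.8 and 29.7 points for both GATA patterns, 11.8 for the SOX core and 5.32 for FOX.

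Among all words of 6 letters, counted with their reverse complement and present in at least 2% of summit windows, 9 of the 10 with the largest ratio of summit to flanking share contained GATA, and the other was CGAGAT. The list was led by GATAAG, with 544 windows (46.5%, 5.94 times the flanking share), followed by GATAAC with 346 windows (29.6%, 4.88 times) and AGATAA (4.39 times). In Transient naive regions GATAAG was present in 66.1% of windows and GATAAC in 25.5%. CGATAA, which contains a CpG, had rank 5, with 4.10% of windows and 4.03 times the flanking share, and stood in 0.76% of Transient windows, 0.62 times their flanking share. It stood in 3.70% of windows with SOX17 (3.76 times) and in 4.77% in facultative heterochromatin (4.10 times). These words were ranked on the same windows and carry no test.

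The authors' classes for the response to Oct4 knockdown, which was done together with Dox treatment, left 1070 of the 1171 regions unchanged. The study took these classes after 48 h of Dox, and it describes Late regions as bound only after differentiation is well advanced. How many regions bound too little GATA6 at that time for a change to be called was not tested. GATA6 binding was raised in 95 of 1171 regions (8.11%, 6.68 to 9.82), beside 8.57% of all 42403 regions and 19.2% of all Late regions. It was lowered in 6 regions (0.51%, 0.24 to 1.11), beside 6.25% of all regions and 1.07% of all Late regions. The lowered share was 0.52% with SOX17 and 0.68% in facultative heterochromatin, and neither difference passed (-0.01, -0.58 to 0.65, and -0.17, -0.66 to 0.48). In raised binding the SOX17-bound naive regions differed most, with 45.2% raised, so the GATA6-only regions were 37.1 percentage points lower (-39.9 to -34.0) on all 20 chromosomes. In Transient naive regions 0 of 1052 were raised, which allows a share of up to 0.285%, and 5.13% were lowered. The share lowered was 4.62 points less in the Late GATA6-only regions (-6.15 to -3.30, 18 of 20 chromosomes). The share raised was 2.02 points above that of facultative heterochromatin (0.27 to 3.93, 16 of 20 chromosomes), a difference that was 0.41 (-2.49 to 3.44) between the width quartiles.

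**Figure D4:**
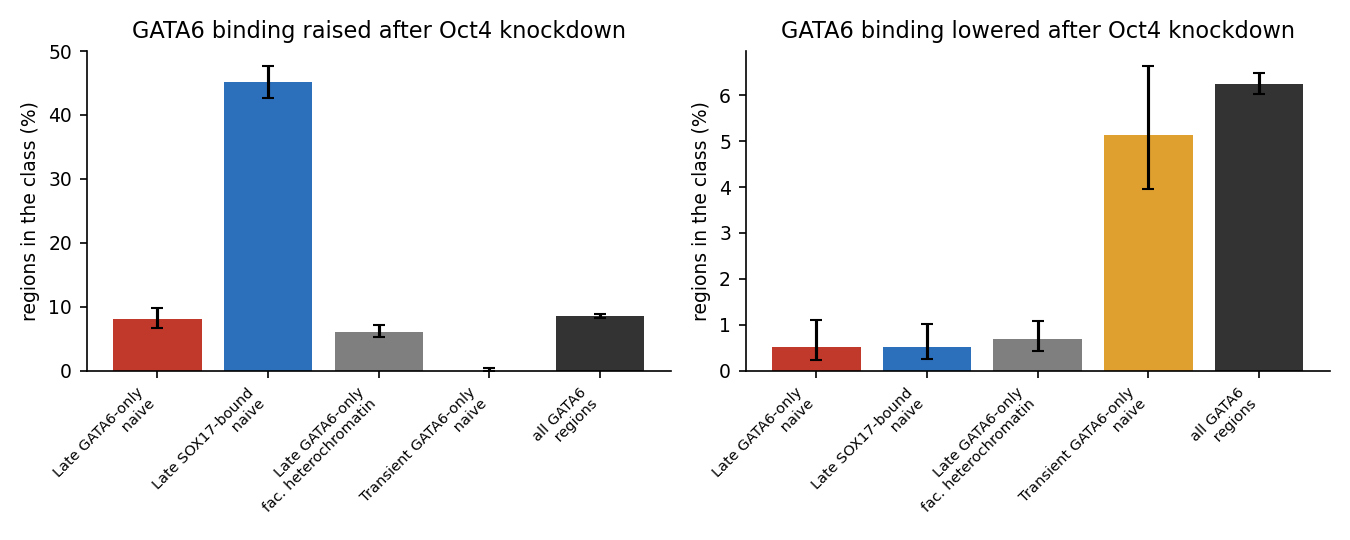
Share of regions (y axis, percent, from 0) whose GATA6 binding the authors classed as raised (left) or lowered (right) after Oct4 knockdown, for 4 classes and all regions, with 95% Wilson intervals. Late GATA6-only naive regions had 8.11% raised and 0.51% lowered, against 45.2% raised in Late naive regions with SOX17.

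Raised and unchanged regions of the set were compared in motif content as a description. The best GATA6 motif of raised regions scored 10.5 on average (SD 2.31) against 10.4 (SD 2.18) in the 1070 unchanged regions, and a SOX17 motif lay at the summit in 46.3% and 44.4%. Raised regions were wider, with a mean of 591 bp against 454 bp, and the part of width in the class was not tested. Of the raised regions with the highest motif scores, 1 lay in an intron of Fam98a at chr17:75543230-75544593. The others lay 200031 bp upstream of Fermt1, a kindlin of cell adhesion, at chr2:133145665-133146325, and 5230 bp upstream of Zfp592 at chr7:80988164-80988638. The 6 lowered regions had as nearest starts Wnt2, a Wnt ligand (84610 bp), Myo1a (9641 bp), Epha7, an ephrin receptor (270773 bp), Bank1 (242870 bp), Atp2b1 (197017 bp) and Ctsc (25974 bp). Of these, those of Wnt2 (chr6:17945720-17946151), Myo1a (chr10:127694786-127695922) and Epha7 (chr4:28542140-28542628) had the highest scores, 14.6, 13.1 and 11.8. The other 3 were named after their class was seen.

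Before GATA6 was induced, nearly all of these regions were closed. By the authors' ATAC-seq classes at d0, 1161 (99.1%) were closed, 10 moderate and 0 accessible, which allows a share of up to 0.256% accessible. SOX17-bound naive regions had 99.2% closed (difference -0.01 percentage points, -0.80 to 0.70) and Transient naive regions 98.3% (difference 0.86, -0.09 to 1.91). DNase data took part in the histone state, so the naive label itself bears on how closed a region is. The closed shares of the naive classes and both differences are a description, not a finding. The 61.3% closed among all regions and 98.7% in facultative heterochromatin are given as values only. All 10 moderate regions had a GATA6 motif within 100 bp of the summit. Their best score averaged 11.1 (SD 2.10) against 10.4 in closed regions, a difference of closed minus moderate of -0.69 (-1.997 to 0.62) that did not pass. They were nearest to the starts of Zcchc8, Copb1, Ctsh, Aff4, Gpbp1, Nudcd1, Nr6a1, Birc6, Dclre1a and Nexn, named after their class was seen.

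Most of the regions lay in introns or between genes. By GENCODE annotation 661 summits (56.4%) lay in introns, 400 (34.2%) between genes, 70 (5.98%) within 1 kb of a transcript start, 24 in other exons and 16 in UTRs. The intergenic share was 15.3 percentage points below that of Transient naive regions (-19.3 to -11.2, 18 of 20 chromosomes), 4.45 below SOX17-bound naive regions (-8.07 to -0.79) and 4.03 below facultative heterochromatin (-7.31 to -0.68, or -8.18 to 0.12 from the spread between chromosomes). The promoter share was 2.37 points above Transient naive regions (0.58 to 4.16, 14 of 20 chromosomes), and was 1.52 points above them (-0.69 to 3.81) between the width quartiles. The other 2 promoter differences had intervals that held 0. The nearest protein-coding start was a median of 35554 bp away, against 60422 bp in Transient naive, 33982 bp in SOX17-bound naive and 28917 bp in heterochromatin regions. On the log10 scale the mean distance was 0.22 shorter than in Transient naive regions (-0.28 to -0.16, 19 of 20 chromosomes) and 0.12 longer than in heterochromatin (0.07 to 0.17, 18 of 20 chromosomes).

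The summits were poor in GC, with a mean of 40.2% (SD 4.70) within 100 bp. This was 3.78 percentage points below facultative heterochromatin (-4.11 to -3.46, all 20 chromosomes), 1.23 below Transient naive regions (-1.64 to -0.82) and 0.69 below SOX17-bound naive regions (-1.03 to -0.34). Between the width quartiles the last difference was -0.09 (-0.53 to 0.36). The mean share of bases masked as repeats in the reference was 18.7% (SD 23.1), which is 12.8 points less than in Transient naive regions (-15.2 to -10.4) and 4.98 points more than in heterochromatin (3.48 to 6.49), and was 18.3% with SOX17.

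The nearest other GATA6 region had its summit a median of 12741 bp away, within 5 kb in 330 cases (28.2%) and within 100 kb in 1091 (93.2%), beside 36.6% and 94.9% for all regions. On the log10 scale this distance was 0.30 shorter than in Transient naive regions (-0.36 to -0.25) on all 20 chromosomes, with a median there of 25978 bp. The nearest neighbour was itself Late in 600 cases (51.2%) and naive in 430 (36.7%), beside 33.6% and 17.4% for the neighbours of all regions. SOX17-bound naive regions had like shares, 50.03% and 37.1%, and facultative heterochromatin had 48.9% and 21.2%. The nearest neighbour bound SOX17 in 509 cases (43.5%), beside 45.6%.

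By number, the X chromosome held more of the set than any other chromosome. Per Mb it held 0.626 regions of the set, fewer than chromosomes 16 (0.713), 19 (0.684), 18 (0.6395) and 6 (0.634). It held 7.24 GATA6 regions of any class per Mb, against 13.4 on chromosome 12 to 22.3 on chromosome 11 among autosomes. It had 107 of the 1171 regions, which made up 8.64% of its 1238 GATA6 regions (7.20 to 10.3), against 2.59% on the autosomes (2.44 to 2.74), a difference of 6.06 percentage points (4.61 to 7.76). Among autosomes the share ran from 1.501% on chromosome 8 to 4.54% on chromosome 16. The naive label moved with this, covering 57.4% of X regions and 16.8% of autosomal regions. SOX17-bound naive regions likewise made up 12.2% of X regions and 3.38% of autosomal regions, and Transient naive regions 6.62% and 2.36%. Late GATA6-only regions in facultative heterochromatin went the other way, with 2.83% and 5.97%. Of the naive regions alone, the set made up 15.1% on X and 15.4% on autosomes (difference -0.30, -2.90 to 2.64). Regions of the set on X and on autosomes had a GATA6 motif at the summit in 85.0% and 84.2% and a SOX17 motif in 45.8% and 44.4%. Those on X were more often intergenic, with 48.6% against 32.7% (difference 15.9, 6.20 to 25.6).

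**Figure D5:**
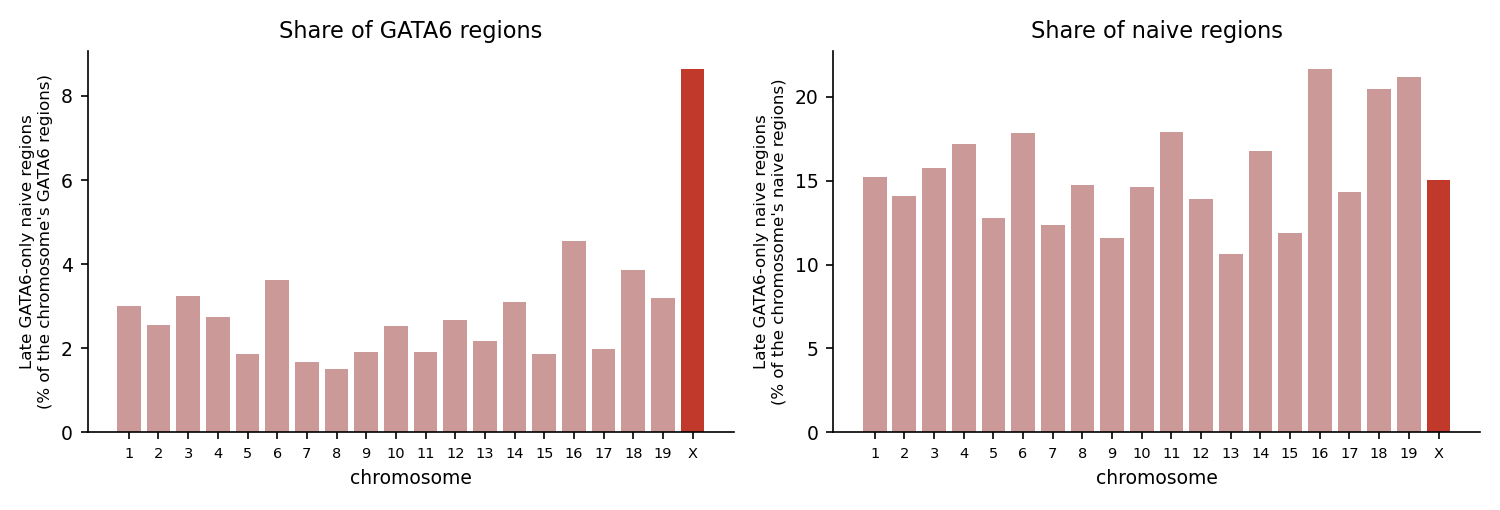
Late GATA6-only naive regions as a percent of all GATA6 regions (left) and of all naive GATA6 regions (right) of each chromosome (x axis, Y left out with 1 GATA6 region). The X chromosome (dark bar) stands at 8.64% on the left, above the 1.501% to 4.54% of the autosomes, and at 15.1% on the right, within their range. Per Mb, which is not drawn, X held fewer regions of the set than chromosomes 16, 19, 18 and 6.

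Of the 107 regions on X, 15 lay in 1 stretch. This was the 1 Mb with the most regions of the set, chrX:168660533-169660532, which held 35 GATA6 regions in all, and 13 of the 15 lay within the gene Arhgap6. Their best GATA6 scores ran from 6.39 to 12.7, and 2 had no GATA6 motif. The next stretches held 8 each, one at chr16:73915207-74915206 in and beside Robo2, an axon guidance receptor, and one at chr5:4654963-5654962 with 5 regions in Cdk14, 2 between genes and nearest to Fzd1, a Wnt receptor, and 1 in 1700015F17Rik. Robo2 held 6 of the regions, and Arf4, Cdk14 and Fut8 held 5 each. In all, 700 of the regions lay in 585 protein-coding genes, of which 498 held 1. Gene length was taken once per region, so a gene with several regions counted several times. Its median was 143 kb around the regions of the set and 101.1 kb around all GATA6 regions.

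The regions with the 5 highest motif scores lay downstream of the start of Cd28, a T cell co-receptor (chr1:60813576-60814467, 8 GATA6 motifs), in Sorcs3, a sorting receptor (chr19:48534902-48535286), in a UTR of Pank3, a pantothenate kinase (chr11:35786751-35787403), in Piezo2, a mechanosensitive channel, and in Smarcad1, a chromatin remodeller (chr6:65107142-65107491). Their scores ran from 14.9 to 15.0. After the Armc3 region, the most GATA6 motifs were 12 each, in an intron of Efna5, an ephrin (chr17:62749298-62750214), and upstream of Rfx3 (chr19:28071453-28074134), the widest of the set with 2682 bp. The regions nearest to a protein-coding start lay 49 bp from Madd (chr2:91175585-91175936), 114 bp from Aknad1, 126 bp from Cep112, 152 bp from Ifnk, an interferon gene, and 183 bp from P2ry4, a nucleotide receptor.

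Some genes of the endoderm lists had a region of the set in their surroundings. Within 100 kb of a transcript start, the set had a region at 1 of 10 PrE transcription factor genes, at 1 of 16 basement membrane genes, at 4 of 15 genes of endocytosis and transport in yolk sac endoderm and at 2 of 11 parietal endoderm and epithelial genes. These are 10.0%, 6.25%, 26.7% and 18.2% of the lists, beside 1802 of 21842 protein-coding genes (8.25%). Late regions of any kind lay within that distance of 10, 15, 14 and 11 of the same genes, and of 64.4% of all protein-coding genes. The PrE factor was Sox7, 99050 bp from a region that is nearer to Pinx1. The basement membrane gene was Lama1, a laminin chain, with a region in its intron 61447 bp from the start (chr17:67758421-67758855). In the endocytosis list, Dab2, a clathrin adaptor, had an intronic region 5963 bp from its start (chr15:6395728-6396311). Its other genes were Ctsl (7711 bp), Cubn, an endocytic receptor of the yolk sac (31876 bp), and Trf (90356 bp). Thbd, which encodes thrombomodulin of the parietal endoderm, had a region 5059 bp downstream of its start (chr2:148402930-148403524), and Cited1 one at 13755 bp.

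The other gene lists were counted in the same way. Of 15 pluripotency genes and 39 Hox genes, 0 had a region of the set within 100 kb. The set had a region near 1 of 15 FGF and MAPK genes (Fgf10, 94620 bp), 1 of 20 long neuronal genes (Ctnna2, 72373 bp, a region with no GATA6 motif) and 51 of 1463 chemosensory receptor genes (3.49%). These 51 genes lay around 15 regions, since receptor genes stand in clusters, and the nearest was Olfr2, an odorant receptor (chr7:107002650-107002973). The lists are short and were chosen with earlier results known, so no test was made against the 8.25% of all protein-coding genes.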

How the data were processed

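The series measured MNase-seq in 18 libraries, and no MNase value enters the table used, which the authors deposited for GATA6 binding regions. According to the labels and the study's methods, reads were processed with bcl2fastq, cutadapt, Bowtie2 and SAMtools against mm10, and GATA6 peaks were called on merged replicates and kept if called in each. Positions are in base pairs. The motif score deposited by the authors is the FIMO log-odds score of the best hit of a JASPAR matrix, not normalised. The accessibility, histone state, SOX17, PTF and Oct4 knockdown classes are the authors' own, and the knockdown class came from their DESeq2 analysis. Of 105 columns, 59 with signal values, none of which could be tied to a library here, and 12 with grouped motif values were left out. The columns used give no read depth, and the study's methods state it only as an average over ChIP-seq libraries.

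Members and gene lists were chosen with earlier results of these data known. The 4 scoring matrices were recovered from the deposited best motifs (largest residual 5.2e-05), and rescanning gave the deposited motif presence and best score (within 0.01) in all 42403 regions. With them, windows reaching 100 bp to each side of the summit, and windows 3 kb away that overlapped no GATA6 region, were scanned. GENCODE M21 gave transcript starts, exons and genes, and lower-case bases of the GRCm38 reference gave repeats. Log10 distances were of bp plus 1. Shares carry 95% Wilson intervals, differences of shares Newcombe intervals and differences of means normal intervals from both SDs. In all, 55 differences were computed, all two-sided, and a difference passed where its interval left out 0. The interval code was tested on simulated data. Alternatives were a spread between chromosomes, regions between the width quartiles, autosomes only, other windows and other definitions of each measure. Named regions were those with the 5 highest GATA6 scores, the 3 highest motif numbers, the 5 shortest distances to a protein-coding start, the one nearest to each gene list, up to 3 lowered and 3 raised by highest score, the 3 densest stretches of 1 Mb, and accessible ones, of which there were 0. No sequence from chromosome 18 is shown. Computing used scipy 1.17.1, pandas 2.3.3 and numpy 2.4.6 in Python 3.11.15, with plots by matplotlib 3.10.9.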

Additional observations from a re-analysis of the deposited data

How the results depend on the processing

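Differences are the GATA6-only naive regions of the Late cluster minus the class named, in percentage points for shares, and the cause of a change was not tested. Among regions between the width quartiles, 33 of 52 differences kept their direction and their side of 0. Calls were lost there for the raised share against heterochromatin (0.41), the GATA6 motif against SOX17-bound regions (2.65), the SOX17 motif against heterochromatin (1.25) and Transient regions (4.71), the ESRRB motif against Transient regions (-1.36), the best GATA6 score against heterochromatin (0.0161), the best SOX17 score against Transient regions (0.10), the best motif within 50 bp against SOX17-bound regions (3.02) and heterochromatin (-2.09), the promoter share against Transient regions (1.52) and GC against SOX17-bound regions (-0.0850). The closed share (1.43) and motifs per kb (-0.35) against Transient regions and the best GATA6 score against SOX17-bound regions (0.27) passed. Uncalled differences changed sign for OCT4:SOX2 (-2.07), ESRRB (2.47) and repeats (-1.39) against SOX17-bound regions, and for ESRRB (2.21) and the best SOX17 score (-0.0353) against heterochromatin.

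With the spread between chromosomes, 51 of 55 calls were kept, and the intervals held 0 for the raised share (2.02), motifs per kb (0.28) and the intergenic share (-4.03) against heterochromatin and the best SOX17 score against Transient regions (0.17). Without chromosomes X and Y the motifs per kb against heterochromatin (0.26) lost the call, and the lowered share against SOX17-bound regions changed sign (0.13). Intervals widened for all 55 differences, chosen after seeing the data, held 0 in 11 called cases. Against heterochromatin these were the raised share (2.02), SOX17 (5.58) and OCT4:SOX2 motifs (4.46), the best GATA6 score (0.22), motifs per kb (0.28) and the intergenic share (-4.03). Against SOX17-bound regions they were the GATA6 motif (4.79) and the intergenic share (-4.45), and against Transient regions the best SOX17 score (0.17), the best motif within 50 bp (-5.65) and the promoter share (2.37).

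Motifs of whole regions in place of windows changed the sign for GATA6 (-0.0248) and OCT4:SOX2 (-7.13) against SOX17-bound regions and for ESRRB against heterochromatin (2.92), gave calls for GATA6 against heterochromatin (4.11) and ESRRB against SOX17-bound regions (-7.30), and lost SOX17 against Transient regions (0.35). Windows reaching 50 bp to each side lost SOX17 (1.45) and OCT4:SOX2 (1.08) against heterochromatin and ESRRB against Transient regions (-1.91), and OCT4:SOX2 against SOX17-bound regions changed sign (-0.29). Windows reaching 200 bp changed no call. Mean scores of all motifs gave a GATA6 call against SOX17-bound regions (0.17) and changed the sign of the GATA6 (-0.0540) and SOX17 scores (-0.0587) against heterochromatin. Motifs per region were lower than in SOX17-bound (-0.15) and Transient regions (-0.58). A promoter limit of 5 kb changed the sign against SOX17-bound regions (-1.19) and gave a call against heterochromatin (-4.35), and protein-coding starts alone changed the sign against heterochromatin (0.25). Repeats of whole regions changed the sign against SOX17-bound regions (-0.79), and the distance to neighbours of another class gave a call there (0.0511).

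No paired analysis was possible because the columns used carry no value of a replicate, and leaving out replicates was not possible for the same reason. The columns used hold no read count of a library or region, and intervals cover counting error among regions only.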
